A study of Mus musculus with 12 samples.

Results

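Genes of cholesterol synthesis were followed in interscapular brown fat, the thermogenic fat depot between the shoulder blades of the mouse. The 8 genes were the enzymes Hmgcs1, Fdps, Fdft1, Sqle, Lss and Msmo1, the sterol carrier Stard4 and the regulator Srebf2. Each gene was read by the brightest, on average over the 12 arrays, of the probe sets assigned to it alone, and all 8 were found among the 20259 genes with a probe set of their own. All 12 mice were C57BL/6 females of 12 weeks that carried floxed alleles of Cpt2 (Cpt2f/f) and had spent 2 weeks at 30 °C. Knockouts (adiponectin-Cre; Cpt2f/f) also carried Cre driven by adiponectin, which acts in adipocytes and leaves other cells of the depot unrecombined, and mice without Cre are called wild types here, as in the labels. Each received an intraperitoneal injection of CL316243, which activates β3-adrenergic receptors, at 10 mg/kg, or of saline, 3 h before the tissue was taken. The 4 groups were knockout CL316243, knockout saline, wild-type CL316243 and wild-type saline, with 3 mice each and 1 array per mouse.

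Cholesterol is built from acetyl-CoA through HMG-CoA, mevalonate, farnesyl diphosphate, squalene and lanosterol. Its enzymes are switched on together by SREBP-2, the product of Srebf2, which is held in the endoplasmic reticulum by Scap and Insig proteins when sterols are plentiful and is cut free by the proteases encoded by Mbtps1 and Mbtps2 when they are scarce. Brown fat burns fatty acids for heat on adrenergic stimulation, and Cpt2 completes the entry of long-chain fatty acids into mitochondria.

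All values are log2 signals as the authors deposited them. Cpt2 lay at 7.87 to 8.20 in the 6 knockout arrays and 8.52 to 8.99 in the 6 wild-type arrays. The thermogenic gene Ucp1 was at its lowest in knockout saline array 1, at 8.39, with every other array between 10.69 and 13.68. Scores of marker genes, each the mean of centred log2 signals, differed most between arrays for skeletal muscle (9 genes tested, -2.28 to 1.90, both extremes in wild-type saline). Macrophage scores (7 genes) were 0.33 to 0.61 in knockout CL316243, 0.17 to 0.58 in knockout saline, -0.60 to -0.38 in wild-type CL316243 and -0.56 to -0.12 in wild-type saline arrays, and fibroblast scores (6 genes) were 0.43 to 0.69, 0.15 to 0.81, -0.74 to -0.45 and -0.75 to -0.42 in the same groups. Brown adipocyte scores (7 genes) were -0.96 to -0.58, -1.51 to -0.10, 1.20 to 1.37 and 0.04 to 0.33.

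In wild types the agonist lowered most of these genes and raised one. Fdps, Fdft1, Sqle, Msmo1 and Stard4 fell, by log2 differences of 0.43 to 0.84 in size, while Hmgcs1 rose 2.26-fold, and Lss and Srebf2 passed no test. Of the 8 genes, 5 were lower and 1 higher at an adjusted p under 0.05 (limma's moderated test, adjusted over 15896 tested genes). Of all tested genes 18.8% were called lower and 11.0% higher, 29.8% in all. The median of the 8 log2 differences was -0.48, and that of all tested genes -0.071. Among all calls in wild types the share higher was 36.8% as deposited, 49.7% after quantile normalization and 62.2% after centring each array on its median, which moved the median of all genes by 0.117, and the 5 falls and the rise kept their signs under both scalings.

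**Figure D1:**
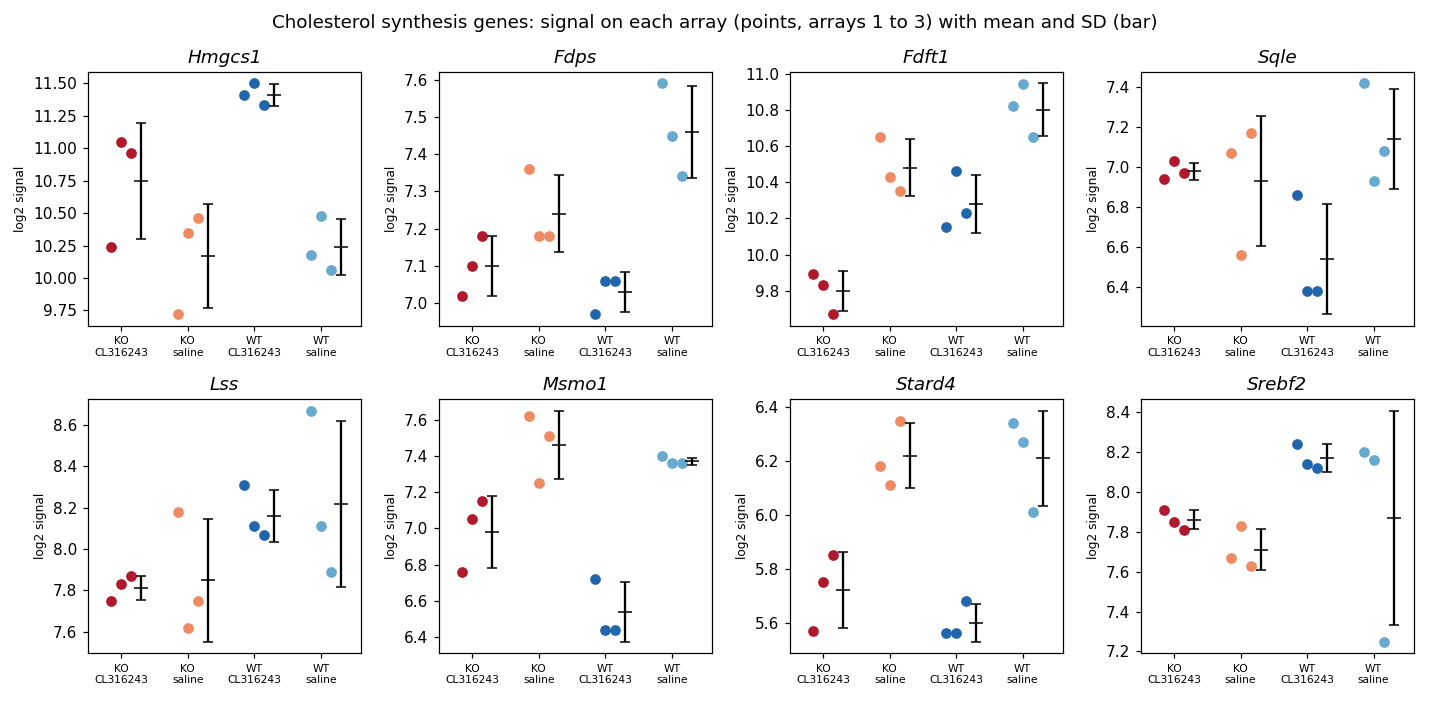
Log2 signal (y axis) of each of the 8 genes on each array (points, arrays 1 to 3 of a group from left to right), with the group mean and SD as a bar, for knockout CL316243, knockout saline, wild-type CL316243 and wild-type saline. The 3 wild-type CL316243 arrays lie highest for Hmgcs1, at 11.33 to 11.50, and lowest for Msmo1, at 6.44 to 6.72.

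Hmgcs1, which condenses acetyl-CoA and acetoacetyl-CoA to HMG-CoA in the cytosol, went against the enzymes below it. Its log2 signal was 11.41, 11.50 and 11.33 in wild-type CL316243 arrays, against 10.18, 10.48 and 10.06 in wild-type saline arrays. Each agonist array was thus above each saline array, and the difference was 1.18 ± 0.229 (log2, standard error, n = 3 per group, limma adjusted p = 0.00319, at most 0.0141 over the alternatives tried). In knockouts it was 10.24, 11.05 and 10.96 after CL316243, against 9.72, 10.35 and 10.46 after saline. The knockout groups overlapped, because knockout CL316243 array 1 was below 2 of the 3 saline arrays. The difference of 0.58 ± 0.229 had a limma adjusted p of 0.107, which was 0.0287 (difference 0.83) when that array was left out.

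The Hmgcs1 promoter is shown because it holds the one match to a sterol regulatory element among the promoters examined. RefSeq sequences on GRCm38.p6 were examined for 4 of the 8 genes, Hmgcs1, Lss, Msmo1 and Srebf2. Each window ran from 250 bases before to 50 bases after the start of the gene. No window was at hand for Fdps, Fdft1 and Sqle. Stard4 was left out of the search, so whether its promoter holds a match was not tested. The window below is chr13:119690101-119690400 on the plus strand, with the match to TCACNCCAC in capitals.

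Hmgcs1: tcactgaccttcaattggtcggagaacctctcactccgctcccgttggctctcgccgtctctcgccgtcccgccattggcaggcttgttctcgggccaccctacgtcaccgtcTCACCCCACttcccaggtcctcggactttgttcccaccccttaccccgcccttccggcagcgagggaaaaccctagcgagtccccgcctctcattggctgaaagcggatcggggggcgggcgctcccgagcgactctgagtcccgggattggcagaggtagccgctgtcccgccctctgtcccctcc

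The match starts at -137 relative to the start of the gene, and 1.24% of 32851 promoter windows of this length hold one on either strand. CCAAT, the box read by NF-Y, occurred 4 times in the Hmgcs1 window, 3 times in that of Msmo1 and 1 time in each of those of Lss and Srebf2 (37.4% of all windows hold at least 1). GGGCGG, the Sp1 box, was present in all 4 windows (35.7% of all windows). TGACGTCA, the full cAMP response element, and the E-box CACGTG were found in none of the 4 (1.79% and 7.15% of all windows). Both strands were searched, and no 2 matches overlapped.

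The enzymes that join isoprene units and make squalene fell in wild types. Fdps, the synthase of farnesyl diphosphate, was at 6.97, 7.06 and 7.06 after CL316243, against 7.59, 7.45 and 7.34 after saline (difference -0.43 ± 0.0877, adjusted p = 0.00390). The wild-type groups did not overlap. Fdft1, the squalene synthase and the first enzyme committed to sterols, was at 10.15, 10.46 and 10.23 after CL316243, against 10.82, 10.94 and 10.65 after saline (-0.52 ± 0.117, adjusted p = 0.00657). Fdft1 too was lower in every agonist array. Both calls held under all 22 alternatives, which included leaving out each array.

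In knockouts these 2 genes parted, although the difference between genotypes in the agonist effect passed no test for either. Fdft1 was at 9.89, 9.83 and 9.67 in knockout CL316243 arrays, against 10.65, 10.43 and 10.35 in knockout saline arrays. It fell there by 0.68 ± 0.117 on the log2 scale (adjusted p = 0.00333), with no overlap. Fdps was at 7.02, 7.10 and 7.18 in knockout CL316243 arrays, against 7.36, 7.18 and 7.18 in knockout saline arrays. The highest agonist array (7.1797) was only just below the lowest saline array (7.1824). The difference was -0.14 ± 0.0877 (adjusted p = 0.296), with a 95% interval of -0.34 to 0.05. The interaction (the knockout agonist difference less the wild-type one) was -0.16 ± 0.165 for Fdft1 (adjusted p = 0.707) and 0.29 ± 0.124 for Fdps (adjusted p = 0.280).

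Sqle, the epoxidase of squalene and a rate-limiting step of the pathway, fell in wild types, with a call that was not firm. It was at 6.86, 6.38 and 6.38 after CL316243, against 7.42, 6.93 and 7.08 after saline (difference -0.60 ± 0.182, adjusted p = 0.0284). The agonist arrays lay below the saline arrays, the nearest by a small margin. The call was lost without wild-type CL316243 array 2 (adjusted p = 0.0979) or array 3 (0.0844), without wild-type saline array 1 (0.109), after median-centring (0.0895) or quantile normalization (0.0619), and when only the 2 groups were fitted (0.0516). In knockouts Sqle was at 6.94, 7.03 and 6.97 after CL316243, against 7.07, 6.56 and 7.17 after saline. The saline arrays spanned the agonist arrays there, with a difference of 0.05 ± 0.182 (adjusted p = 0.897). The interaction was 0.65 ± 0.257, with an adjusted p of 0.240.

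Lss, the synthase that closes squalene epoxide to lanosterol, showed no call in the 5 comparisons. It was at 7.75, 7.83 and 7.87 in knockout CL316243, 8.18, 7.62 and 7.75 in knockout saline, 8.31, 8.11 and 8.07 in wild-type CL316243 and 8.67, 8.11 and 7.89 in wild-type saline arrays. Every knockout CL316243 array was below every wild-type CL316243 array, and the other pairs of groups compared overlapped. The agonist differences were -0.03 ± 0.189 in knockouts (95% interval -0.45 to 0.38) and -0.06 ± 0.189 in wild types (-0.48 to 0.35). These intervals are wide enough to hold falls of the size seen in Fdps.

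Msmo1, the methylsterol oxidase that removes methyl groups after lanosterol, fell most among the 8 genes in wild types. It was at 6.72, 6.44 and 6.44 after CL316243, against 7.40, 7.36 and 7.36 after saline (difference -0.84 ± 0.125, adjusted p = 7.35e-04, at most 0.00432 over the alternatives). In knockouts it was at 6.76, 7.05 and 7.15 after CL316243, against 7.62, 7.25 and 7.51 after saline. The groups stood apart in both genotypes, and Msmo1 fell in knockouts by 0.47 ± 0.125 on the log2 scale (adjusted p = 0.0246). That call was lost without knockout CL316243 array 1 (adjusted p = 0.0964), knockout saline array 1 (0.0923) or array 3 (0.0731), after median-centring (0.0689) or quantile normalization (0.0522), and when only the 2 groups were fitted (0.0575). The interaction was 0.37 ± 0.177 (adjusted p = 0.351).

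Stard4, which carries sterols between membranes and is itself switched on by SREBP-2, fell in both genotypes. It was at 5.57, 5.75 and 5.85 in knockout CL316243 arrays, against 6.18, 6.11 and 6.35 in knockout saline arrays (difference -0.49 ± 0.110, adjusted p = 0.0113, and 0.0507 without knockout CL316243 array 1). Wild types had 5.56, 5.56 and 5.68 after CL316243, against 6.34, 6.27 and 6.01 after saline (-0.61 ± 0.110, adjusted p = 0.00207). No agonist array reached a saline array of its genotype. The interaction was 0.12 ± 0.155 (adjusted p = 0.787, 95% interval -0.22 to 0.46).

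In knockouts 3 of the 8 genes fell after the agonist (Fdft1, Msmo1 and Stard4) and none rose, where 10.2% of all tested genes were called lower, 7.75% higher and 17.9% either way. The median of the 8 log2 differences was -0.09, against -0.057 for all tested genes. No gene of the 8 passed limma's test of the interaction, which called 2.04% of all tested genes (0.774% higher and 1.26% lower), and 2 of the 8, Fdps and Sqle, had an unadjusted p under 0.05 (0.0393 and 0.0282). The 2 agonist comparisons rest on separate mice.

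**Figure D2:**
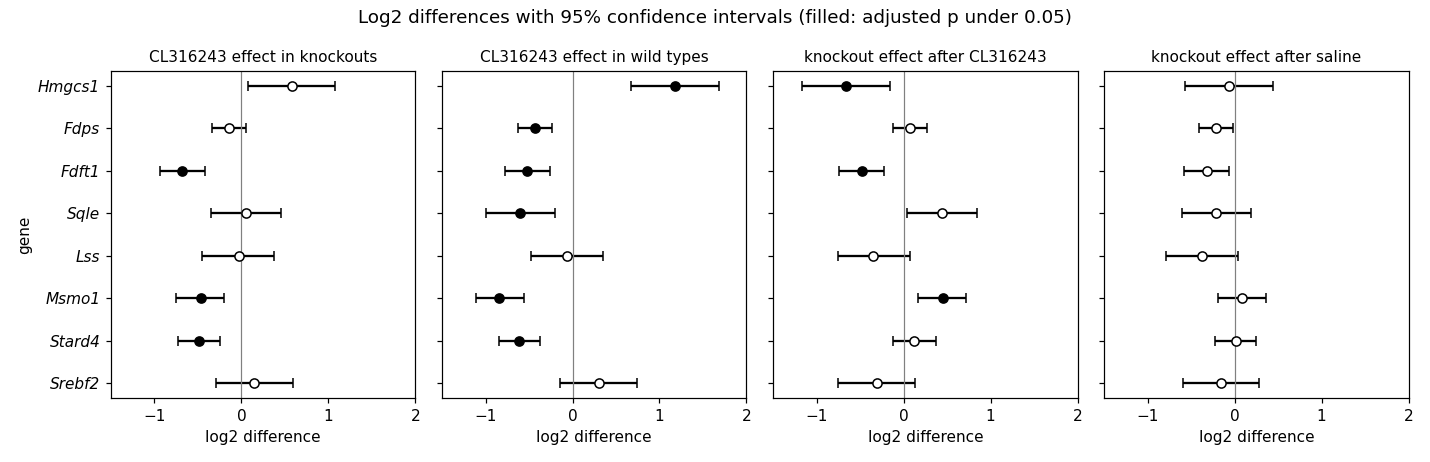
Log2 difference (x axis) of each of the 8 genes (rows) in 4 comparisons (panels), with its 95% confidence interval from the fit; filled points have an adjusted p under 0.05. Hmgcs1 is the 1 filled point above 0 in wild types after CL316243, and Fdft1, Msmo1 and Stard4 are filled in both genotypes.

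After saline, loss of Cpt2 gave no call among the 8 genes (limma, 0 of 8, with 11.6% of all tested genes called, 5.44% higher and 6.19% lower, and 2 of the 8 at an unadjusted p under 0.05, Fdps and Fdft1). The log2 differences ran from -0.38 for Lss to 0.08 for Msmo1. Fdft1 came nearest, at -0.32 ± 0.117 (adjusted p = 0.0952), with 10.65, 10.43 and 10.35 in knockouts and 10.82, 10.94 and 10.65 in wild types. Fdps was at -0.22 ± 0.0877 (adjusted p = 0.130). All 8 genes overlapped between the genotypes after saline, and the share of all tested genes that did so was not counted. Without wild-type saline array 3, Srebf2 was called lower in knockouts (-0.47, adjusted p = 0.0133).

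After CL316243, 3 of the 8 genes were called between knockouts and wild types. That share is not far from the 29.5% of all tested genes called (14.7% higher and 14.8% lower). Hmgcs1 and Fdft1 were lower in knockouts and Msmo1 higher. Msmo1, at 6.76, 7.05 and 7.15 in knockouts and 6.72, 6.44 and 6.44 in wild types, differed by 0.45 ± 0.125 (adjusted p = 0.0207). Fdft1, at 9.89, 9.83 and 9.67 in knockouts and 10.15, 10.46 and 10.23 in wild types, differed by -0.48 ± 0.117 (adjusted p = 0.0106). Neither gene overlapped between the genotypes, and the Fdft1 call held under all 22 alternatives. The Msmo1 call was lost without knockout CL316243 array 2 (adjusted p = 0.0679) or 3 (0.0716) or wild-type CL316243 array 2 (0.0709) or 3 (0.0629).

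Hmgcs1 sat at the threshold in this comparison, at -0.66 ± 0.229 (adjusted p = 0.0493). Its 3 knockout arrays were all below its wild-type arrays, at 10.24, 11.05 and 10.96 against 11.41, 11.50 and 11.33. The call was kept under 8 of 21 alternatives and lost under 13, where the adjusted p reached 0.176 (difference -0.41) without knockout CL316243 array 1. Of the 12 arrays, leaving out 10 ended the call. Sqle was higher in knockouts by 0.44 ± 0.182 without passing (adjusted p = 0.0898, and 0.0339 without wild-type CL316243 array 1), although its groups did not overlap. Some sets of cell markers moved with genotype here, where 14.7% of all tested genes were called higher and 14.8% lower. Of the markers tested, 7 of 7 macrophage, 6 of 6 fibroblast and 6 of 6 epithelial ones were higher in knockouts. Of 7 brown adipocyte markers, 6 were lower. Skeletal muscle had 0 of 9 called, and lymphocytes 1 of 5 and Schwann cells 1 of 3 higher. Endothelial markers had 2 of 6 higher and 2 lower, and general adipocyte markers 1 of 5 higher and 1 lower. The part of other cells in these differences was not tested. In a bulk sample, fewer cells of a type and less RNA per cell cannot be told apart.

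The order of the group means differed between genes. Fdps, Fdft1, Msmo1 and Stard4 had both agonist groups below both saline groups, and in Msmo1 and Stard4 no array of the lower saline group reached down to the higher agonist group. For Fdps those groups were only just apart, at 7.1797 and 7.1824. For Fdft1 the wild-type CL316243 and knockout saline arrays overlapped, and knockout CL316243 was lowest and apart from the rest. Sqle ran from wild-type CL316243 through both knockout groups to wild-type saline, with each neighbour overlapping. Hmgcs1 had wild-type CL316243 on top and apart, and below it knockout CL316243, wild-type saline and knockout saline each overlapped the next.

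Srebf2 passed none of the 5 tests in the fit of all arrays, and its probe sets did not read alike. The set with the highest mean was at 7.91, 7.85 and 7.81 in knockout CL316243, 7.67, 7.83 and 7.63 in knockout saline, 8.24, 8.14 and 8.12 in wild-type CL316243 and 8.20, 8.16 and 7.25 in wild-type saline arrays. Wild-type saline array 3 was far below the other arrays, and the agonist difference in wild types was 0.30 ± 0.200 (adjusted p = 0.308), or -0.01 without that array. After CL316243 every knockout array was below every wild-type array, with a difference of -0.31 ± 0.200 (adjusted p = 0.253). That difference was called without wild-type saline array 3 (adjusted p = 0.0152) and when only the 2 groups were fitted (0.0362), and it was 0.05 by the second set. Of the 10 listed probe sets nearest to it in number, 9 belong to genes of chromosome 6, whereas Srebf2 lies on chromosome 15. The second set, whose 10 nearest neighbours are all from chromosome 15, was at 7.78, 7.89 and 7.75 in knockout CL316243, 7.80, 7.77 and 7.89 in knockout saline, 7.80, 7.72 and 7.74 in wild-type CL316243 and 7.86, 7.82 and 7.75 in wild-type saline arrays. By that set the groups overlapped throughout, with agonist differences of -0.02 ± 0.0711 in knockouts (95% interval -0.17 to 0.14) and -0.06 ± 0.0711 in wild types (-0.21 to 0.10).

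The same check was made for the other genes, since numbers of neighbouring sets follow the genome for 87.9% of the 25539 sets of 1 gene. The sets used for Fdps, Fdft1, Sqle, Lss, Msmo1 and Stard4 had neighbours on the gene's own chromosome. For Hmgcs1, which lies on chromosome 13, the set used had 9 of 10 neighbours on chromosome 12 and 0 on chromosome 13. The second Hmgcs1 set, with 2 of 10 neighbours on chromosome 13 and the rest spread over others, gave log2 differences of the same sign as the first, at 0.30 for the agonist in knockouts, 0.92 for the agonist in wild types and -0.68 for the knockout after CL316243, against 0.58, 1.18 and -0.66. Where these probes lie in the genome was not settled here, so the Hmgcs1 rise is that of the probe sets assigned to it. The second Fdps set, with neighbours on chromosome 10, fell further in wild types (-0.71) and the third, with neighbours on chromosome 13, hardly moved (-0.04). The weaker Fdft1 set also lay on the gene's own chromosome and was at -0.41 in wild types. The second Sqle set had a mean of 3.35, below the median of every array (5.40 to 5.65), and nothing was read from it.

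**Figure D3:**
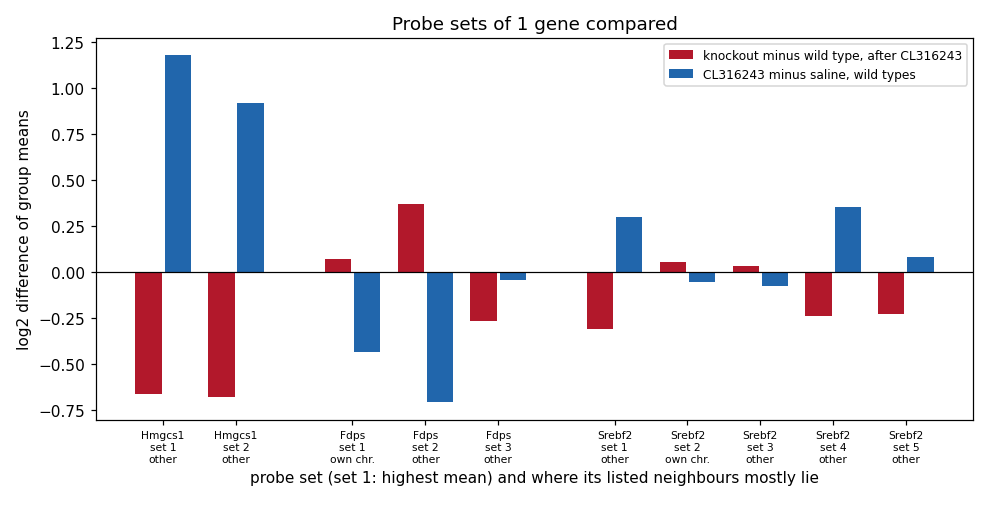
Log2 difference of group means (y axis) for each probe set assigned to Hmgcs1, Fdps or Srebf2 alone, as knockout minus wild type after CL316243 (red) and CL316243 minus saline in wild types (blue); sets are numbered by falling mean and marked by whether their listed neighbours mostly lie on the gene's own chromosome. Both Hmgcs1 sets show blue bars above 0 (1.18 and 0.92), while the Srebf2 set on its own chromosome stays near 0 (-0.06).

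Other enzymes of the pathway were also lower in wild types after CL316243. Of 15 listed, 11 were tested, of which 6 fell, none rose and 5 had no call, with a median log2 difference of -0.43. Of all tested genes 18.8% were called lower there, with a median of -0.071. The steepest was Idi1, the isomerase that makes the allylic isoprene unit, at -1.39 ± 0.297 (adjusted p = 0.00516), followed by the desaturase Sc5d (-0.92 ± 0.225, adjusted p = 0.0106). The mevalonate kinase Mvk (-0.43 ± 0.110) fell as well, and these 3 calls held under all 22 alternatives. Ebp (-0.38), the demethylase Cyp51 (-0.53) and the decarboxylase Mvd (-0.37) also fell, with calls lost under 2, 10 and 13 of 22 alternatives.

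In knockouts 1 of these 11 enzymes fell after CL316243, Mvk (-0.42 ± 0.110, adjusted p = 0.0235), with a call lost under 5 of 22 alternatives. That share is near the 10.2% of all tested genes called lower. The median of the 11 was -0.18. Against wild types after CL316243, 4 of 11 were higher in knockouts and none lower, where 14.7% of all tested genes were called higher. They were Cyp51 (0.97 ± 0.172, adjusted p = 0.00227), Sc5d (0.86 ± 0.225), Pmvk (0.61 ± 0.171), the kinase after Mvk, and Nsdhl (0.58 ± 0.183). Cyp51 was at 7.73, 8.14 and 8.07 in knockout CL316243 and 7.80, 7.27 and 7.66 in knockout saline arrays, with 7.12, 7.11 and 6.80 in wild-type CL316243 and 7.79, 7.53 and 7.29 in wild-type saline arrays. Its wild-type agonist arrays were thus the lowest of the 12. The Cyp51 call held under all 22 alternatives, and those of Sc5d, Nsdhl and Pmvk were lost under 1, 5 and 3. None of the 11 passed the interaction test, and Cyp51 came nearest with 0.93 ± 0.243 (adjusted p = 0.0784). Without adjustment 4 of the 11 had a limma p under 0.05 there, and the share of all tested genes that did so was not counted. The median interaction of the 11 was 0.38, against 0.011 for all tested genes.

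**Figure D4:**
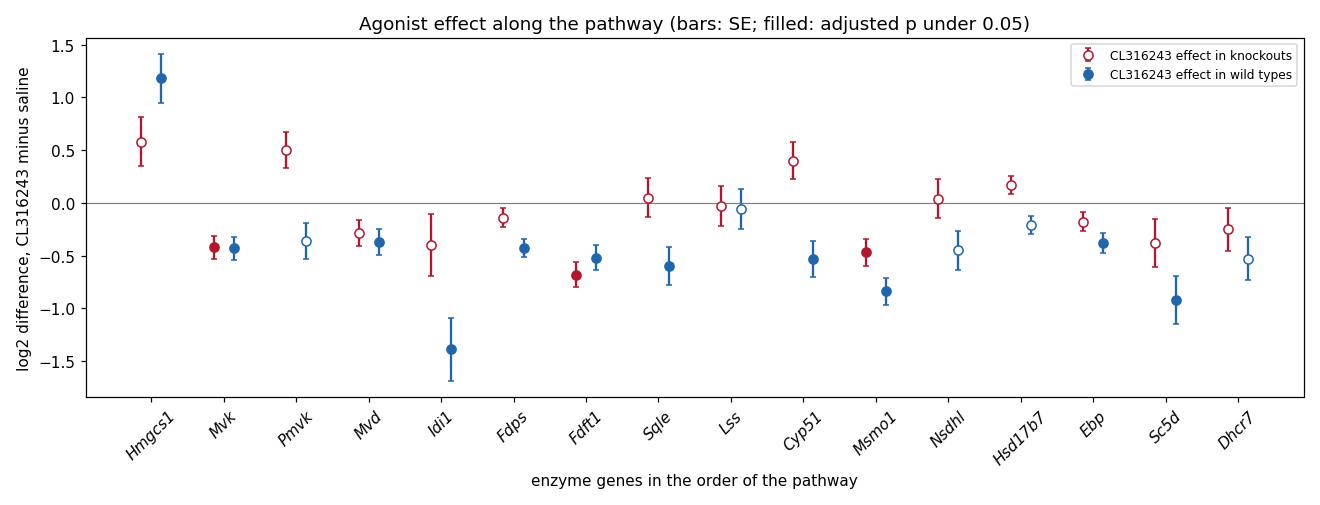
Log2 difference, CL316243 minus saline (y axis), with its standard error, for enzyme genes in the order of the pathway (x axis), in knockouts (red) and wild types (blue); filled points have an adjusted p under 0.05. Hmgcs1 stands alone above 0 in wild types at 1.18, and Idi1 is lowest at -1.39.

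Of 8 tested SREBP control genes, 3 fell and none rose in wild types after CL316243, where 18.8% of all tested genes were called lower. The median log2 difference of these control genes was -0.07, close to the -0.071 of all tested genes. The 3 that fell were Srebf1 (-0.81 ± 0.215, adjusted p = 0.0158, lost under 2 of 22 alternatives), the protease gene Mbtps1 (-0.38 ± 0.0676, adjusted p = 0.00191) and Insig2 (-0.21 ± 0.0720, adjusted p = 0.0458, lost under 17 of 22 alternatives). The SREBP-1 proteins of Srebf1 act mainly on fatty acid synthesis. In knockouts Srebf1 fell to 0.499 times its saline level (adjusted p = 0.00961). Mbtps1 was higher in knockouts than in wild types after CL316243 (0.39 ± 0.0676, adjusted p = 0.00207), with 7.66, 7.61 and 7.59 against 7.26, 7.24 and 7.20. Insig1, a target and a brake of SREBP-2, was at 0.41 ± 0.229 in knockouts (adjusted p = 0.253) and -0.04 ± 0.229 in wild types (adjusted p = 0.927).

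Uptake and transport genes went in both directions. Of 11 tested, 3 rose and 3 fell in wild types after CL316243, where 11.0% of all tested genes were called higher and 18.8% lower. Among them were the HDL receptor Scarb1 (0.91 ± 0.135, adjusted p = 7.12e-04), the lysosomal lipase Lipa (0.55 ± 0.0966, adjusted p = 0.00187) and the sterol transporter Gramd1b (0.71 ± 0.102), which rose, and the lysosomal sterol carrier Npc2 (-0.46 ± 0.0911), which fell. In knockouts Gramd1b rose (0.43 ± 0.102) and Lipa fell (-0.32 ± 0.0966, a call lost under 11 of 22 alternatives). The agonist effect differed between genotypes for Scarb1 (interaction -1.09 ± 0.190, adjusted p = 0.0176) and Lipa (-0.87 ± 0.137, adjusted p = 0.0112).

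Genes of efflux, ester and oxysterol handling included several that were higher in knockouts. Of 9 tested, 4 were higher in knockouts after saline and 4 after CL316243, and none lower, where 5.44% and 14.7% of all tested genes were called higher. After saline these were the efflux pumps Abca1 (0.91 ± 0.196) and Abcg1 (0.66 ± 0.158), apolipoprotein gene Apoe (0.61 ± 0.146) and the ester hydrolase Nceh1 (0.78 ± 0.105). The saline calls of Abca1, Abcg1 and Apoe were lost under 4, 5 and 5 of 22 alternatives, and that of Nceh1 under none of them. After CL316243 the genes called higher were Abcg1 (0.68 ± 0.158), Apoe (0.45 ± 0.146), Nceh1 (0.95 ± 0.105) and Ch25h (0.87 ± 0.265). Of these, the Apoe and Ch25h calls were lost under 7 and 5 of 22 alternatives. Abca1 had no call there (0.37 ± 0.196, limma adjusted p = 0.169), and Ch25h had none after saline (-0.83 ± 0.265, limma adjusted p = 0.0657). Macrophages express Abca1, Abcg1, Apoe and Nceh1 strongly, 6 of 7 macrophage markers were higher in knockouts after saline, and the part of macrophages was not tested. The oxysterol enzyme Cyp27a1 fell after CL316243 in both genotypes (-0.96 ± 0.135 in knockouts and -0.74 ± 0.135 in wild types). Of 4 genes that handle HMG-CoA or ketone bodies outside the sterol path, Oxct1 fell in both (-0.35 ± 0.0926 and -0.45 ± 0.0926). Aacs, which activates acetoacetate for lipid synthesis, fell in wild types (-0.72 ± 0.192). In knockouts the Aacs difference was -0.60 ± 0.192 (limma adjusted p = 0.0504), and its interaction was 0.12 ± 0.271 (adjusted p = 0.888).

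Over the 12 arrays, Hmgcs1 ran against most of the others. Its Pearson correlation was -0.81 with Msmo1, -0.69 with Stard4, -0.67 with Fdps and -0.61 with Sqle. With Fdft1 it was -0.45, with Lss 0.05 and with the Srebf2 set of highest mean 0.55. Stard4 followed Msmo1 (0.89) and Fdps (0.84). With group means removed, the correlation of Hmgcs1 was 0.16 with Msmo1, 0.53 with Stard4, -0.04 with Fdps and -0.14 with Sqle. That of Stard4 was then 0.42 with Msmo1 and 0.61 with Fdps. Of all other tested genes, Slc5a3 (0.948), Coq10b (0.924), Hspa8 (0.922), Mtf1 (0.920) and Hsph1 (0.918) were most like Hmgcs1. Lmf2 (0.951), Pip4k2c (0.948), Def8 (0.945), Capns1 (0.943) and Dnal4 (0.942) were most like the mean of the other 7 genes. These correlations describe 12 arrays that share the 4 group means.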

How the data were processed

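RNA of 12 mice was biotin-labelled and read on microarrays, 1 per mouse. The deposited values are log2 signals per probe set, normalized with RMA in Partek on build mm9, per the submitters' processing notes, which give no versions or background step. They were used as deposited. The table's 115830 rows include 25539 of 1 gene in the probe table used here, 2300 of several genes and 87991 not listed. Genes took the row with the highest mean, and were tested if above the 25th percentile of an array in at least 3 arrays (15896 genes). A model with 1 mean per group was fitted with limma 3.58.1 in R 4.3.3 over all 12 arrays, with Benjamini-Hochberg adjustment within each of 5 comparisons. Errors beside log2 differences are standard errors. Rows were sorted and drawn in Python 3.11.15 (pandas 2.3.3, matplotlib 3.10.9). The fit was tested on simulated data. The number of arrays limits the precision.

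The 8 genes, the 58 other pathway genes (43 tested) and the markers were written from general knowledge with earlier results of these data known. Genes are named where they are members, pathway genes that passed a test or the 5 most alike. Uncalled pathway results (Insig1, Aacs in knockouts, Abca1 after CL316243, Ch25h after saline, the Cyp51 and Aacs interactions) were chosen after their values were seen. Alternatives were median-centring, quantile normalization, no filter or a 50th percentile filter, the mean of a gene's rows, trended and robust moderation, the compared groups alone, a replicate block, a muscle covariate and leaving out each array. After the data were seen, own-chromosome rows were added as an alternative, as were all alternatives for pathway genes. Chromosomes come from RefSeq's table on another build than mm9, so no gene coordinates are given beyond the promoter, whose build is named.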

Additional observations from a re-analysis of the deposited data

Results flagged for a closer look

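The agonist effect differed between genotypes, by limma's test of the interaction, for 3 of the 43 pathway genes tested. That test called 2.04% of all tested genes (0.774% higher and 1.26% lower). For Scarb1, the HDL receptor, the interaction was -1.09 (log2, adjusted p = 0.0176, and 0.0536 at most over the alternatives). Its signal was 8.78, 8.47 and 8.53 in knockout CL316243 arrays and 8.93, 8.75 and 8.66 in knockout saline arrays. Wild types had 10.01, 9.51 and 9.65 with the agonist, against 8.87, 8.86 and 8.72 with saline. For Lipa, the lysosomal acid lipase that frees cholesterol from its esters, it was -0.87 (adjusted p = 0.0112), with the call kept under all 21 alternatives. Knockouts had 9.18, 9.41 and 9.19 for Lipa with the agonist, against 9.53, 9.58 and 9.64 with saline. Wild types had 9.80, 9.54 and 9.52 with the agonist, and their 3 saline arrays lay at or below 9.15. For Ch25h, which makes 25-hydroxycholesterol, an inhibitor of SREBP-2 processing, it was 1.70 (adjusted p = 0.0446). Ch25h was at 7.80, 8.46 and 8.49 in knockout CL316243, 6.50, 7.35 and 7.23 in knockout saline, 7.86, 7.07 and 7.22 in wild-type CL316243 and 7.80, 7.76 and 8.01 in wild-type saline arrays. It rose in knockouts (1.23 ± 0.265, adjusted p = 0.0101) and its interaction call was lost under 14 of 21 alternatives.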

How the results depend on the processing

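Of 862 values of the 8 genes under alternatives, 803 kept their direction and side of the threshold, 30 lost and 6 gained a call, and 23 changed sign, all of them for differences that passed no test. Of 1094 values of called pathway results, 941 kept the call and 153 lost it, and 25 of 50 results kept it throughout. Leaving out each array gave 0 to 1 of the 8 genes for the knockout after saline (1 without wild-type saline array 3) and 1 to 3 after CL316243 (1 without knockout CL316243 array 3 or wild-type CL316243 array 2 or 3). For pathway genes it gave 3 to 9 for the agonist in knockouts (3 without knockout CL316243 array 1, 4 without knockout saline array 1 or 2), 3 to 8 for the knockout after saline (3 without knockout saline array 1 or 3 or wild-type saline array 1), 9 to 15 after CL316243 (9 without knockout CL316243 array 2) and 1 to 3 for the interaction (1 without knockout CL316243 array 3). Median-centring gave 4 pathway genes for the agonist in knockouts, against 7, and fitting only the groups compared gave 3 for the knockout after saline, against 7. Over all genes that setting called 604 after saline, against 1849, and the 50th percentile filter called 497 in the interaction, against 324. Leaving out 1 array gave 1591, 1707 and 1730 genes for the agonist in knockouts, against 2851 (without knockout CL316243 array 1, knockout saline array 1 and knockout CL316243 array 3). For the knockout after saline it gave 581, 636, 639 and 1161 (without knockout saline array 3 or 1, or wild-type saline array 1 or 2). The interaction had 128 to 184 genes without knockout CL316243 array 2 or 3, knockout saline array 2 or 3, wild-type CL316243 array 2 or wild-type saline array 1 or 3. Median-centring moved the share of calls that were higher to 63.8% for the agonist in knockouts (43.2% as deposited), 39.7% for the knockout after CL316243 (49.7%) and 24.1% for the interaction (38.0%).

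Signs changed as follows, and the cause was not tested. For Lss the agonist difference was 0.04 in knockouts and 0.05 in wild types after median-centring and 0.05 in knockouts with the muscle covariate, and its interaction was -0.02 after median-centring. Srebf2 by its own-chromosome set was -0.02 for the agonist in knockouts, -0.06 in wild types, 0.02 for the knockout after saline, 0.05 after CL316243 and 0.04 in the interaction. Leaving out single arrays gave ranges that crossed 0 for the agonist in wild types (Lss -0.23 to 0.16, Srebf2 -0.01 to 0.46), the agonist in knockouts (Sqle -0.14 to 0.16, Lss -0.15 to 0.13), the knockout after saline (Hmgcs1 -0.21 to 0.16, Stard4 -0.09 to 0.08, Srebf2 -0.47 to 0.00) and the interaction (Lss -0.19 to 0.20, Srebf2 -0.31 to 0.16). The own-chromosome setting gives no value for Hmgcs1.

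Deviations of same-numbered arrays from their group means had correlations of -0.298 to 0.476. Differently numbered arrays were not compared, so this range cannot decide whether the numbers mark pairs. The labels do not say that they do, and the numbers were not taken as pairs. With the replicate block, 6, 3, 0, 3 and 0 of the 8 genes were called in the 5 comparisons, as without it. The 3 arrays per group limit the precision, as the printed intervals show.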
